A study of Mus musculus with 15 samples.

Results

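The comparison set thymic invariant natural killer T (iNKT) cells of stage 1-2 from wild-type (WT) mice against thymic T cells from WT mice. It was chosen by the sample labels alone and holds 6 of the 15 arrays of the series, 3 per cell type. The RNA came from HSA-low thymocytes of mice 4 weeks of age and was read on 1-colour mouse bead arrays by Illumina. All mice carried floxed Dicer alleles (Dicer lox/lox); the WT mice had no Cre transgene (CD4-Cre -/-), and the knock-out (KO) mice of the series, CD4-Cre +/-, enter here through the shared estimate of spread and as values beside the others. Stage 1-2 iNKT cells were low for HSA, intermediate for TCRβ, positive for the CD1d tetramer and negative for NK1.1, with CD44 either high or low, so that the group pools stages 1 and 2. The T cells shared the low HSA gate, stained for TCRβ and did not bind the CD1d tetramer, a gate that does not separate CD4 from CD8 cells or set aside other TCRβ+ subsets. WT stage 3 iNKT cells, sorted with NK1.1 and with high CD44, stand beside them in places. Of 16593 gene symbols on the array 6838 were detected on all 3 arrays of at least 1 of the 5 groups and were tested, and 6002 of these were detected on all 3 arrays of stage 1-2 iNKT or of T cells.

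iNKT cells are T cells with a nearly invariant T cell receptor (TCR) that recognises lipids presented by CD1d. They are selected in the thymus by double-positive thymocytes, pass from an early precursor through CD44-low and CD44-high stages without NK1.1 to NK1.1+ cells, and acquire effector programmes there that conventional T cells acquire only after priming in the periphery. Cells without NK1.1 include those that make interleukin 4 (type 2) and interleukin 17 (type 17), whereas most thymic NK1.1+ iNKT cells have a type 1 programme with natural killer (NK) receptors. Mature conventional thymocytes in turn switch on the factors and receptors that take a naive T cell out of the thymus into lymph nodes.

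The median signal of the 6 arrays lay between 88.3 and 124, and between 30.3% and 40.8% of probes were detected per array. Pearson correlations of log2 intensity between arrays of a group were 0.943 to 0.967 in stage 1-2 iNKT cells and 0.975 to 0.986 in T cells. Whether a group's arrays stem from separate animals is not stated in the labels, so the p-values measure the spread between these arrays, which may be technical in part. The Y-linked gene Eif2s3y stood at 4.31, 8.60 and 8.35 on the T cell arrays and at 7.03, 7.73 and 6.62 on the stage 1-2 arrays, so more than 1 animal contributed to the T cell group. Klrb1c, the gene of NK1.1, was detected on 1 of 3 stage 1-2 arrays (4.51, 5.0 and 4.70) and on all stage 3 arrays (7.99, 8.74 and 8.65), and the sort was for NK1.1- and NK1.1+ cells. Dicer1 itself stood at 5.94, 6.60 and 6.21 in stage 1-2 and 6.43, 6.59 and 6.30 in T cells and did not pass the test (log2 change -0.19 ± 0.25, SE; adjusted p = 0.628).

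Transcripts that define other blood cells were present on all 3 stage 1-2 arrays and were at or near the detection limit on the T cell arrays. S100a8, a calcium-binding protein stored by neutrophils, stood at log2 intensities of 13.56, 13.28 and 12.81 on the stage 1-2 arrays and 4.40, 4.53 and 4.27 on the T cell arrays, where it was not detected. The difference of at least 308-fold (adjusted p = 3.31e-08) was the largest rise in the comparison. Its partner S100a9 (at least 128-fold), the iron-binding granule protein Ltf (at least 96.4-fold), the antimicrobial peptide Camp (at least 40.6-fold) and the siderophore-binding protein Lcn2 (at least 22.8-fold) were likewise above the T cell arrays on every stage 1-2 array. A second Ltf probe differed by 1.28 and did not pass (adjusted p = 0.116). Of 26 listed neutrophil genes 18 were tested and 9 of them rose in stage 1-2 cells at an adjusted p under 0.05 in limma, against 11.5% of all 6838 genes tested, and none fell (11.9% of all). No T cell array detected 14 of the 18. These could be tested only through another group that detected them, which made a rise the likelier outcome.

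Several other lists of cells that a thymic sort could hold also held rises. The same limit applies to their members that no T cell array detected. Of 16 tested genes of monocytes and macrophages 11 rose and none fell: the lysozyme gene Lyz1 stood at 12.07, 11.41 and 11.65 against 4.66, 4.38 and 4.74 (at least 108-fold), Lyz2 at 9.90, 9.48 and 9.25 against 4.36, 4.36 and 4.32, and Alox5ap, which serves leukotriene synthesis, at 9.47, 9.10 and 10.38 against 4.71, 4.36 and 4.52. The groups did not overlap for any of these genes. Of 9 tested genes of dendritic and plasmacytoid dendritic cells 7 rose, among them Ly6d (8.70, 8.61 and 10.51 against 4.37, 4.51 and 5.13), Cox6a2 (at least 10.3-fold), Klk1 (at least 7.83-fold) and Tcf4, the transcription factor that specifies plasmacytoid dendritic cells (8.98, 8.20 and 9.45 against 4.85, 4.86 and 5.37). The other 2 genes of that list, Bst2 (-0.40 ± 0.42, adjusted p = 0.54) and Pacsin1 (-0.83 ± 0.31, adjusted p = 0.0624), were lower and did not pass. Hdc, which makes histamine, and Cpa3, a mast cell protease, rose by 3.70 ± 0.44 and 3.33 ± 0.63, and Cpa3 varied from 6.17 to 9.31 between the stage 1-2 arrays. In contrast, none of 4 tested genes of thymic stroma passed the test by the probe used (Pecam1, an adhesion molecule of endothelium, was lower at an unadjusted p under 0.05, and its second probe fell by 1.16, adjusted p = 0.0032). The 1 tested gene of the erythroid and platelet list, Epor, did not pass either.

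The mean log2 intensity of the neutrophil list lay at 7.37 to 8.15 on the stage 1-2 arrays, 4.89 to 5.61 on the stage 3 arrays, 4.49 to 4.56 on the WT T arrays and 7.27 to 10.3 on the KO iNKT arrays. That of the monocyte and macrophage list lay at 7.32 to 7.94, 6.08 to 6.45 and 5.10 to 5.21 on the WT stage 1-2, stage 3 and T arrays, and that of the dendritic list at 7.57 to 8.40, 5.24 to 6.07 and 5.40 to 5.57. Summed on the linear scale, the 18 neutrophil genes came to between 14914 and 28455 per stage 1-2 array and to between 408 and 445 per T cell array. The levels of these cells' genes thus moved with every comparison of stage 1-2 with T cells given here; their part in the other results was not tested. The stage 1-2 gate asked for TCRβ and CD1d tetramer staining. Whether the sort kept myeloid cells out was not tested. With median scaling 8 neutrophil, 7 monocyte and macrophage and 5 dendritic genes rose. In bulk samples, fewer cells of a type and less RNA per cell cannot be told apart.

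**Figure D1:**
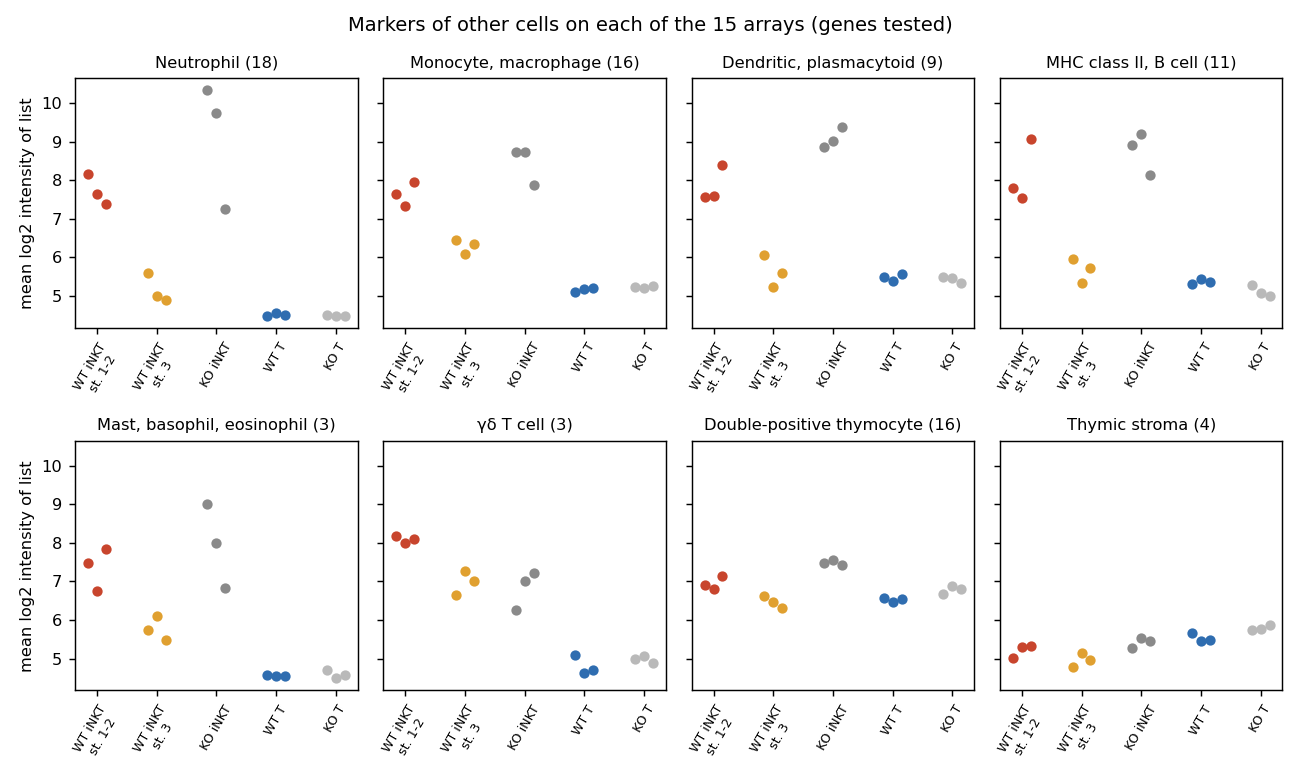
Mean log2 intensity (vertical axis) of the tested members of 8 marker lists on each of the 15 arrays; each point is 1 array and each panel 1 list, with the number of genes tested in brackets. On the neutrophil panel the stage 1-2 arrays stand at 7.37 to 8.15 and the WT T arrays at 4.49 to 4.56.

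The genes of antigen presentation on MHC class II, which present peptides on B cells, dendritic cells and macrophages, mostly rose. Of 11 tested genes of the MHC class II and B cell list 9 rose and none fell: 7 of 9 class II genes and both B cell genes, Cd79b and Fcrla. No T cell array detected 6 of the 11, and these could be tested only through another group that detected them. With median scaling 6 of the 11 rose. H2-Ab1, the β chain of I-A, stood at 10.94, 9.82 and 11.41 in stage 1-2 and 4.48, 4.52 and 4.49 in T cells, at least 54.6-fold higher (adjusted p = 1.51e-08). H2-Eb1 was at least 35.9-fold and H2-Aa at least 20.4-fold higher, and the invariant chain Cd74, which chaperones class II molecules, rose by 5.18 ± 0.38 from 5.01, 4.90 and 5.33 to 10.23, 9.43 and 11.11. For these 4 genes replicate 3 was the highest and replicate 2 the lowest of the stage 1-2 arrays, and no stage 1-2 array overlapped a T cell array. The peptide exchange factors H2-DMb1 (2.71 ± 0.43), H2-DMa (1.03 ± 0.28) and H2-DMb2 (1.02 ± 0.32) also passed, whereas H2-Oa (0.12 ± 0.35) and H2-Ob (-0.06 ± 0.51), which restrain that exchange in B cells, did not.

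The promoters of H2-Aa, H2-Eb1 and H2-DMb1 are shown because these genes moved together. Each line gives the 250 bases before the transcription start from RefSeq (GRCm38.p6), read 5′ to 3′ on the gene's own strand, and capitals mark GATTGG, the core of the Y box of class II promoters, on either strand.
H2-Aa: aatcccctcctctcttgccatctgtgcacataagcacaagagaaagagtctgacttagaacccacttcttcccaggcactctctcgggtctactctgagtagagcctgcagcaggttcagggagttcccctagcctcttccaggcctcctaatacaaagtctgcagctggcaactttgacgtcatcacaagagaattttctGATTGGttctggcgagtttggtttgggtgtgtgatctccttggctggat
H2-Eb1: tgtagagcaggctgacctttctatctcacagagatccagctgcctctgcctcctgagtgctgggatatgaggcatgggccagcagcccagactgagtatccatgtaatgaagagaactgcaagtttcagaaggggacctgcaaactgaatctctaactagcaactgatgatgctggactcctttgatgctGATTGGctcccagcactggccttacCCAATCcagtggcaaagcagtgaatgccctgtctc
H2-DMb1: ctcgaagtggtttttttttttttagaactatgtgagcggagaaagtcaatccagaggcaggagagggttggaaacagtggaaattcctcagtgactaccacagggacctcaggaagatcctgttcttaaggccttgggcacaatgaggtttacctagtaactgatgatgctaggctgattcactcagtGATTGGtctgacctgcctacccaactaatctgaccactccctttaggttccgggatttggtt
These windows lie at chr17:34287824-34288073 on the minus strand, chr17:34305617-34305866 on the plus strand and chr17:34152941-34153190 on the plus strand. The motif in gene orientation begins 49 bases before the start in H2-Aa, 60 in H2-Eb1 and 62 in H2-DMb1; H2-Eb1 holds a second copy, on the opposite strand, 35 bases before the start. Of the 11 tested genes 8 had a window, and all 8 held the motif in at least 1 window, H2-Oa and H2-Ob included. Another window of H2-DMa held none. The copies in H2-DMa and Fcrla began farther out, 199 and 225 bases before the start, that of Fcrla on the opposite strand. Of 32851 promoter windows of this length 14.6% held the motif, a share per window and not per gene. A match is a description of these letters, and the genes that did not pass held it too.

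Across all genes, stage 1-2 iNKT cells and T cells differed widely and about equally in both directions. At an adjusted p under 0.05 in limma, 787 of 6838 genes (11.5%) were higher and 814 (11.9%) were lower in stage 1-2 cells. Each list count given here is to be read against these shares. An unadjusted p under 0.05 was reached by 2356 genes. Among the genes past the threshold, the groups of arrays did not overlap for 774 of the 787 rises and 807 of the 814 falls. A call with 3 arrays per group makes this likely, and the share among all genes tested was not counted. The median change of all genes tested was -0.04. A change of at least 2-fold was reached by 487 rises and 403 falls. No T cell array detected 209 (26.6%) of the rising genes, a state that held for 6.70% of the genes tested. Likewise, no stage 1-2 array detected 51 (6.27%) of the falling genes, against 2.73% of those tested. With median scaling in place of quantile normalization 190 genes passed, 129 higher and 61 lower (67.9% higher against 49.2%), all 190 were among the 1601, and all 1601 kept their sign.

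**Figure D2:**
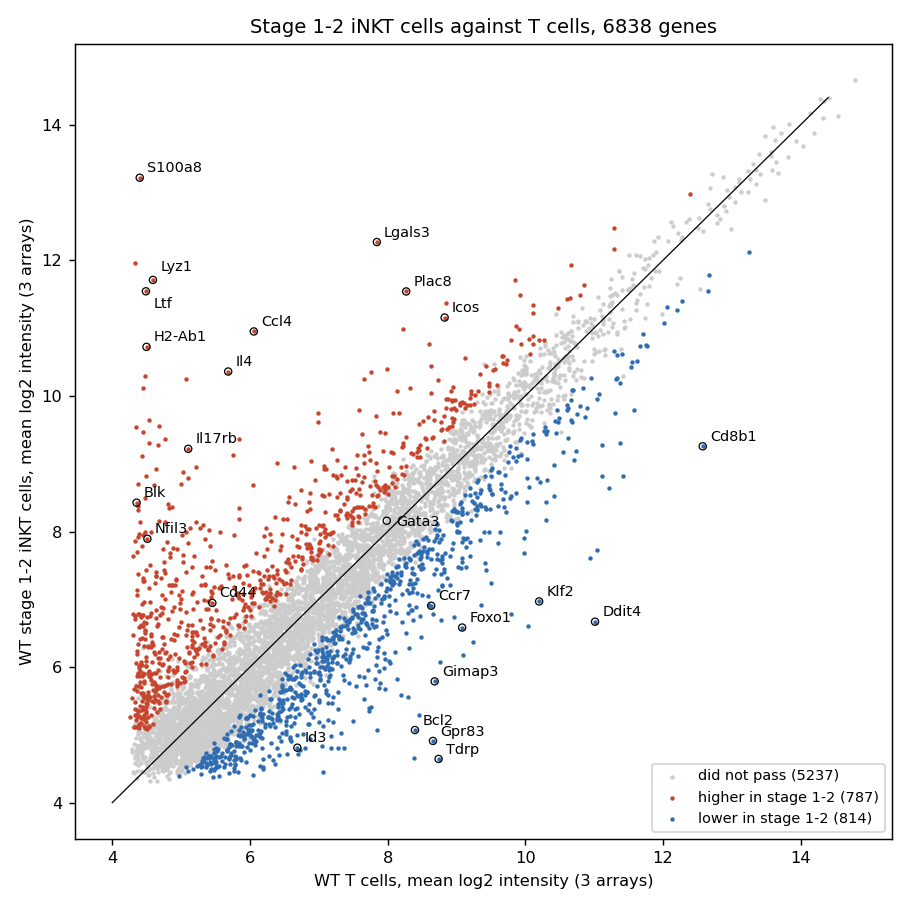
Mean log2 intensity of 6838 genes in WT T cells (horizontal axis) and WT stage 1-2 iNKT cells (vertical axis), 3 arrays each; the line marks equal levels and colours mark genes past an adjusted p of 0.05. The genes highest above the line include S100a8, Lyz1, Il4 and Il17rb, and the genes farthest below it include Ddit4, Tdrp and Cd8b1.

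Genes of the type 2 iNKT programme were among the largest rises outside the lists of other cells. Il4, the cytokine that stage 2 iNKT cells are known to make already in the thymus, stood at 10.18, 11.06 and 9.84 on the stage 1-2 arrays and 5.52, 5.67 and 5.86 on the T cell arrays. All stage 1-2 arrays lay far above all T cell arrays, a 25.6-fold difference of the means (log2 change 4.68 ± 0.34, SE; adjusted p = 5.14e-08). The IL-25 receptor chain Il17rb, a marker of type 2 and some type 17 iNKT cells, stood at 9.37, 9.47 and 8.81 against 5.14, 5.10 and 5.08, 17.3-fold higher. Plac8, a small cysteine-rich protein, stood at 11.30, 11.23 and 12.10 against 8.02, 8.23 and 8.56 (9.65-fold), and the costimulatory receptor Icos at 11.14, 11.30 and 11.02 against 8.74, 9.05 and 8.70 (5.02-fold). The groups did not overlap for any of the 3. Tnfsf11, the RANK ligand that acts on thymic epithelium, rose by 2.11 ± 0.27, and Cd81 by 0.86 ± 0.20. Il4 is also made by basophils and mast cells. Their list averaged log2 intensities of 6.76 to 7.84 in stage 1-2 against 4.55 to 4.59 in T cells, and its part in the Il4 result was not tested. Plac8 averaged 8.54 in stage 3 and 12.09 in KO iNKT cells. The part of the other cells' transcripts in the rise of Plac8 and of the other type 2 genes was not tested either. Of 13 tested type 2 genes 6 rose and 3 fell (Ltb, Cd4 and Cd27), with a median of 0.39, and Gata3, the factor that drives type 2 differentiation, did not pass (8.14, 8.68 and 7.66 against 8.09, 8.12 and 7.76; 0.17 ± 0.25, adjusted p = 0.67). With median scaling 3 type 2 genes rose and none fell, and Icos missed the threshold (adjusted p = 0.0576).

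Most tested type 17 genes rose: of 11 tested genes of 21 listed, 10 rose, against 11.5% of all genes tested, and none fell. Their median change was 2.38, or 1.76 with the genes undetected in T cells set at their bound. Members that no T cell array detected, such as Blk and Il17re, could be tested only through another group. For these a rise was the likelier outcome. Blk, a Src-family kinase of B cells and of IL-17-producing innate-like T cells, stood at 8.54, 8.22 and 8.51 on the stage 1-2 arrays and 4.31, 4.30 and 4.45 on the T cell arrays, where it was not detected (at least 11.1-fold; adjusted p = 7.78e-09). The IL-17C receptor chain Il17re (at least 3.38-fold), the membrane protein Tmem176b (8.45, 7.81 and 8.85 against 4.97, 4.36 and 5.27) and the chemokine receptor Ccr6 (7.34, 7.56 and 8.77 against 5.41, 5.15 and 5.48) followed. For Ccr6 stage 1-2 replicate 3 was the highest, and a second Ccr6 probe rose by 1.61. The nuclear receptor Rora, which acts in type 17 cells, rose by 2.41 ± 0.39, the semaphorin receptor Nrp1 by 1.70 ± 0.33, the water channel Aqp3 by 1.66 ± 0.30 and the cytokine Il17a by 1.07 ± 0.33. Some of these genes also mark γδ T cells: all 3 tested genes of that list rose, namely Blk, Il17re and the scavenger receptor Cd163l1 (9.49, 9.25 and 8.66 against 6.58, 5.34 and 5.36). The mean log2 intensity of the γδ list was 7.98 to 8.19 in stage 1-2, 6.66 to 7.28 in stage 3 and 4.63 to 5.09 in T cells, and its part in the type 17 result was not tested. That of the MHC class II and B cell list was 7.54 to 9.07 in stage 1-2 and 5.32 to 5.44 in T cells. The part of that list, and of the neutrophil, monocyte and dendritic lists above, was not tested either. The stage 1-2 gate asked for TCRβ and CD1d tetramer staining, and γδ T cells carry no TCRβ. Whether the sort kept them out was not tested. With median scaling 6 of the type 17 genes passed.

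Type 1 and NK genes divided. Of 17 tested type 1 effector genes 8 rose and Nkg7 fell. The chemokine Ccl4 stood at 10.98, 10.63 and 11.24 against 5.86, 5.95 and 6.36, 29.7-fold higher and among the 12 largest rises, and its neighbour Ccl3 was at least 8.01-fold higher. Both are also made by myeloid cells, whose marker levels are given above. The IL-18 receptor chain Il18r1 (9.65, 9.68 and 9.53 against 7.10, 6.94 and 6.95) and its partner Il18rap (1.30 ± 0.27), the IL-12 receptor chain Il12rb1 (1.31 ± 0.26), the cystatin Cst7 (1.17 ± 0.21) and the chemokine receptors Cxcr3 (1.34 ± 0.30) and Cxcr6 (1.23 ± 0.28) also rose. Tbx21, the gene of T-bet, which directs the type 1 programme, stood at 5.12, 4.83 and 4.74 against 4.47, 4.45 and 4.85 (0.31 ± 0.21, adjusted p = 0.325), and Il2rb, the IL-15 receptor chain under its control, at 4.88, 5.60 and 5.45 against 5.25, 6.36 and 5.65 (adjusted p = 0.291). Neither passed. Of 13 tested NK receptor genes 2 rose, Klra1 (6.95, 7.70 and 6.36 against 4.63, 4.53 and 5.12) and Cd160 (7.85, 8.42 and 8.01 against 6.50, 6.94 and 6.80), and Klrd1, the CD94 chain, fell by 0.90 (adjusted p = 0.00633). These counts, 15.4% higher and 7.69% lower, lie near those of all genes. With median scaling 3 type 1 genes rose and none fell, and no NK receptor gene passed. Klra1, Cd160, Klrd1 and Cst7 no longer passed (adjusted p = 0.0949, 0.467, 0.613 and 0.484).

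Transcription factors tied to innate-like T cells moved in both directions. Of 19 tested factors 5 rose (26.3%) and 4 fell (21.1%), against 11.5% and 11.9% of all genes tested. Nfil3, a basic leucine zipper factor of NK and other innate lymphocytes, stood at 7.88, 7.73 and 8.06 on the stage 1-2 arrays against 4.39, 4.47 and 4.67 on the T cell arrays, where it was undetected (at least 7.67-fold; adjusted p = 4.8e-08). Bhlhe40, a repressor that supports cytokine production by T cells, stood at 7.76, 7.27 and 8.25 against 5.04, 4.54 and 5.07, 7.34-fold higher. Zeb2 (at least 3.41-fold), Rora and Ikzf2 (0.74 ± 0.25) were the other rises, and Zeb2 is also known from myeloid cells. In contrast Id3, an inhibitor of E proteins, fell from 6.55, 6.78 and 6.74 to 4.57, 5.04 and 4.82 (-1.88 ± 0.22, adjusted p = 8.1e-06). Egr2, which TCR signals induce and iNKT precursors need, stood at 6.12, 6.43 and 6.77 in stage 1-2 and 7.82, 7.86 and 8.06 in T cells and fell by 1.47 (adjusted p = 0.00103), as did its paralog Egr1 (-1.19 ± 0.21) and Zeb1 (-1.18 ± 0.24). Id2, the other E-protein inhibitor of effector lymphocytes, stood at 8.21, 8.42 and 7.62 against 7.49, 8.21 and 8.06, overlapping groups that did not pass (adjusted p = 0.681). With median scaling Egr2 did not pass (adjusted p = 0.275), and 4 factors of this list rose and 1 fell.

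**Figure D3:**
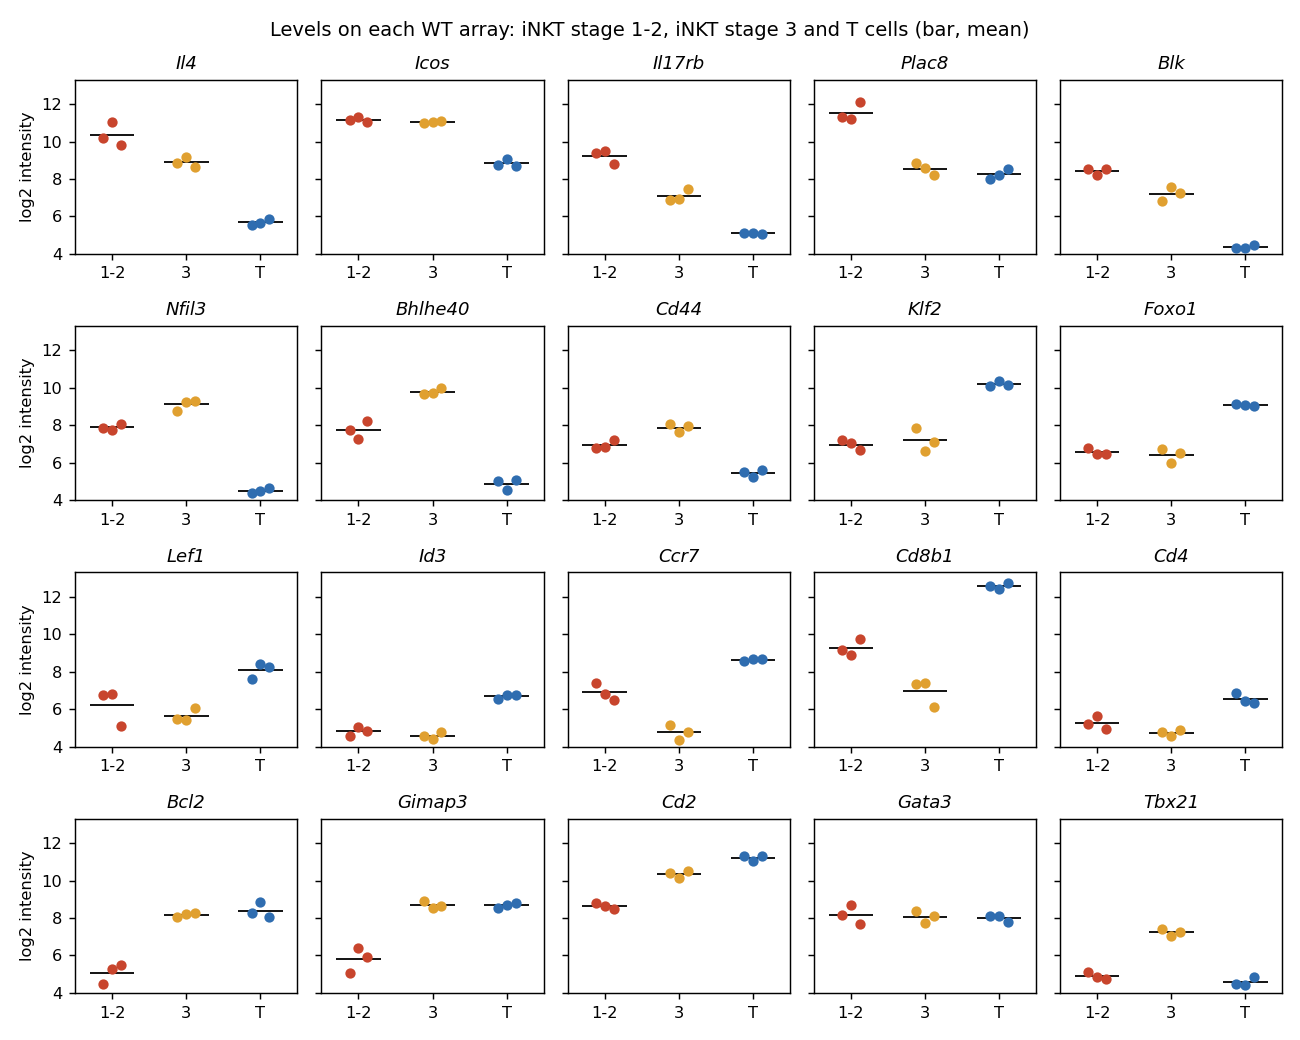
Log2 intensity of 20 genes (vertical axis) on each WT array of stage 1-2 iNKT cells, stage 3 iNKT cells and T cells; points are arrays, and bars are means of 3. Il4, Il17rb, Plac8 and Blk are highest in stage 1-2 cells, Klf2, Foxo1, Cd8b1 and Ccr7 are highest in T cells, and Gata3 overlaps in all groups.

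The regulators of the naive T cell state were lower in stage 1-2 iNKT cells. Of 13 tested genes 10 fell (76.9%) and 1 rose, with a median of -1.06. Klf2, the factor that switches on the receptors for thymic exit, stood at 7.19, 7.05 and 6.67 in stage 1-2 and 10.08, 10.36 and 10.16 in T cells, 9.4-fold lower without overlap (-3.23 ± 0.27, adjusted p = 2.26e-07). Foxo1, which acts upstream of Klf2 in naive T cells, stood at 6.81, 6.45 and 6.49 against 9.14, 9.07 and 9.04 (5.66-fold lower), and the related factor Klf3 at 6.63, 5.57 and 5.99 against 7.82, 8.22 and 8.06. Lef1, a T cell factor of the Wnt pathway, stood at 6.77, 6.78 and 5.12 against 7.62, 8.41 and 8.27 (-1.88 ± 0.40, adjusted p = 0.00215), with stage 1-2 replicate 3 well under the other arrays. Themis, Bcl11b, Ikzf1, Foxp1, Foxp3 and Ets1 made up the other falls, by 0.88 to 1.66. The exception was Tcf4, which also belongs to the plasmacytoid dendritic list above. Of the genes that fell, Foxp3 is also counted in the regulatory T cell list. Themis is also counted in the TCR signalling and double-positive thymocyte lists. With median scaling 3 of the 10 falls passed, Klf2, Foxo1 and Klf3 (adjusted p = 0.00376, 0.00792 and 0.0397), and Lef1 did not (adjusted p = 0.0541).

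Genes of naive cells ready to leave the thymus fell with them: of 18 tested 14 fell (77.8%) and 1, Ly6c1, rose by 1.59 ± 0.35, with a median of -1.51. Tdrp, one of the largest falls of the comparison, stood at 4.56, 4.54 and 4.83 against 8.57, 8.81 and 8.84 and was detected on 1 of 3 stage 1-2 arrays. The actin crosslinker Actn1 stood at 7.96, 7.45 and 7.78 against 10.94, 11.17 and 11.01, 9.91-fold lower, and Dgka, a diacylglycerol kinase that dampens TCR signals, at 9.09, 8.71 and 8.66 against 10.97, 11.40 and 10.94. Ccr7, the receptor that takes naive T cells to the thymic medulla and lymph nodes, stood at 7.42, 6.83 and 6.47 against 8.55, 8.68 and 8.67 and fell by 1.73 (adjusted p = 0.000629). Dapl1, Ms4a6b, Igfbp4, Cnn3, Treml2, Als2cl, Itgb7 and Npc2 also fell, by 0.86 to 2.61. Il7r, the receptor for interleukin 7, changed by -0.07 ± 0.26 and did not pass (adjusted p = 0.881). The probes of S1pr1 and Cd8a did not pass the detection filter. With median scaling 7 of the 14 falls passed.

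The largest falls held several genes outside these lists. Ddit4, a stress-induced inhibitor of mTOR signalling, stood at 6.72, 6.72 and 6.56 in stage 1-2 and 10.51, 11.29 and 11.25 in T cells, the largest fall by log2 change (-4.34 ± 0.34, adjusted p = 1e-07). Tsc22d3, a glucocorticoid-induced gene, changed by -3.33 ± 0.34, and Itm2a, a membrane protein of thymocytes after selection, stood at 6.23, 6.79 and 6.80 against 10.03, 9.89 and 10.22. The groups did not overlap in any of them. Gpr83, a G protein-coupled receptor known from regulatory T cells, was 13.4-fold lower, Tmie, a part of the hair-cell transduction channel, 13.2-fold, the adhesion protein Amigo2 8.89-fold and the neuronal vesicle protein Nsg2 8.02-fold. Among 11 tested regulatory T cell genes 5 fell, Gpr83, Ikzf4 (at least 2.18-fold), Tnfrsf4, Foxp3 and Tnfrsf18, and 3 rose, Capg, Nrp1 and Ikzf2; with median scaling 3 fell and none rose.

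Components of TCR signalling fell or did not pass: of 28 tested 14 fell, none rose, and the median was -0.60. The adhesion receptor Cd2 stood at 8.81, 8.63 and 8.46 in stage 1-2 and 11.32, 11.06 and 11.29 in T cells, 6.01-fold lower (adjusted p = 1.6e-06). Ubash3a, a negative regulator of TCR signals, stood at 4.66, 4.52 and 4.95 against 6.89, 6.64 and 6.58. Rasgrp1, which couples diacylglycerol to Ras, stood at 9.44, 9.32 and 9.15 against 11.46, 11.36 and 11.32. All 3 genes were lower on each stage 1-2 array than on any T cell array. The CD3 chains Cd3d (-0.89 ± 0.25), Cd3e (-0.93 ± 0.27) and Cd3g (-0.75 ± 0.21) and the ζ chain Cd247 (-1.15 ± 0.29) fell as well, next to Cd5, Cd6, Prkcq, Lat, Ptprc, Themis and Fyn. The kinase Zap70 (0.07 ± 0.24) and the costimulator Cd28 (-0.10 ± 0.28) did not pass. The gate for stage 1-2 cells was intermediate for TCRβ, while that for T cells was TCRβ+. In stage 3 the median of the list against T cells was -0.03. There Cd3d (-0.46), Cd3e (0.02) and Cd3g (-0.13) did not pass and Cd247 did (-0.98, adjusted p = 0.0192). The part of the gate and of the other cells' transcripts in the falls was not tested. With median scaling 3 of the 14 falls passed, and without single arrays 9 (without stage 1-2 replicate 3) to 14 did.

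Both coreceptors were lower. Cd8b1 stood at 9.18, 8.87 and 9.72 in stage 1-2 and 12.58, 12.43 and 12.72 in T cells, a change of -3.32 ± 0.31, and remained detected on every stage 1-2 array (adjusted p = 5.81e-07). Cd4 stood at 5.22, 5.64 and 4.93 against 6.87, 6.42 and 6.32 and fell by 1.28 (adjusted p = 0.000534, or 0.136 with median scaling). Of 15 tested costimulatory genes Icos and the inhibitory receptor Lag3 (0.83 ± 0.25) rose and 5 fell: the OX40 gene Tnfrsf4 (4.73, 6.98 and 6.84 against 9.33, 8.76 and 9.18), Cd96 (-1.22 ± 0.29), the inhibitory receptor Btla (-0.80 ± 0.21), Cd27 (-0.73 ± 0.20) and the GITR gene Tnfrsf18 (-0.78 ± 0.24). For Tnfrsf4 stage 1-2 replicate 1 was far under the other arrays. Among 9 tested genes of the SLAM receptors and their adaptors, through which iNKT precursors are selected, none rose. Slamf1 was detected on no stage 1-2 array and on all T cell arrays (at least 1.48-fold lower; adjusted p = 0.0113). The kinase Fyn fell by 0.83 with an adjusted p of 0.0128, and it did not pass when WT T replicate 3 was left out. A second Slamf1 probe did not pass (-0.48, adjusted p = 0.111), and the adaptor gene Sh2d1a (SAP) stood at 8.47, 9.27 and 7.99 against 8.23, 8.22 and 8.12 (adjusted p = 0.359). Without WT T replicate 2 Btla did not pass, and 3 genes of the costimulatory list fell. With median scaling 1 costimulatory gene fell and none rose, and Cd96, Btla, Slamf1 and Fyn did not pass (adjusted p = 0.215, 0.616, 0.451 and 0.713).

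Receptors for cytokines and chemokines moved in both directions. Of 24 tested genes of cytokine receptors and their feedback inhibitors 6 rose, namely Il17rb, Il17re, Il18r1, Il18rap, Il12rb1 and the inhibitor Socs2, and 6 fell. Those that fell were the 3 TGF-β receptors Tgfbr1 (-0.90 ± 0.26), Tgfbr2 (-1.84 ± 0.26) and Tgfbr3 (-2.30 ± 0.34), the gp130 gene Il6st (-1.70 ± 0.26), Il17ra (-1.17 ± 0.27) and Il10rb (-0.99 ± 0.29). Tgfbr2 was 3.58-fold lower (adjusted p = 6.34e-05, or 0.138 with median scaling), and a second, dimmer Tgfbr2 probe did not pass (-0.42, adjusted p = 0.211). Of 11 tested chemokine and related receptors Ccr6, Cxcr6 and Cxcr3 rose. Gpr18 (7.18, 7.44 and 7.12 against 9.45, 9.40 and 9.66), the CXCL12 receptor Cxcr4 (4.39, 5.38 and 5.27 against 6.18, 6.92 and 7.21), Ccr7 and S1pr4 fell. Cxcr4 was detected on 2 of 3 stage 1-2 arrays, and its call was lost with median scaling (adjusted p = 0.203). With that scaling 3 cytokine receptor genes rose and 2 fell, and 1 chemokine receptor gene rose and 2 fell. Cd44, the hyaluronan receptor that defines the stages after stage 1, stood at 6.81, 6.84 and 7.19 against 5.53, 5.22 and 5.62 and was 2.81-fold higher (adjusted p = 3.11e-05, or 0.335 with median scaling); 1 of its 2 other probes rose too (1.29) and the other did not pass (-0.17, adjusted p = 0.624). The integrin chain Itgb7, the selectin ligand Selplg and Icam2 fell, by 0.62 to 0.87, and Icam2 lost its call without any 1 of the 6 arrays and Selplg without stage 1-2 replicate 2. No adhesion gene passed with median scaling.

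GIMAP GTPases, which support lymphocyte survival, fell in stage 1-2 cells: 7 of 8 passed, none rose, and the median was -1.72. Gimap3 stood at 5.05, 6.39 and 5.93 in stage 1-2 and 8.55, 8.71 and 8.80 in T cells, 7.44-fold lower (adjusted p = 1.53e-06). Gimap7 stood at 6.52, 5.90 and 5.81 against 8.59, 8.85 and 8.83. Gimap8 stood at 8.01, 8.12 and 7.59 against 9.98, 10.11 and 9.86 and Gimap6 at 9.25, 9.26 and 9.03 against 10.78, 10.59 and 10.84. The groups did not overlap for any of these 4, and Gimap4 alone did not pass (-0.37 ± 0.22, adjusted p = 0.242). GIMAP genes lie in 1 cluster and resemble each other in sequence, so signal shared between their probes was not tested. With median scaling 3 of the 7 passed.

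Bcl2, the mitochondrial survival protein, was among the 12 largest falls. It stood at 4.48, 5.25 and 5.48 on the stage 1-2 arrays and 8.29, 8.84 and 8.07 on the T cell arrays (-3.33 ± 0.28, adjusted p = 2.26e-07). All 6 kept Bcl2 probes fell, by 1.77 to 3.33. Of its relatives Mcl1 fell (-1.37 ± 0.21), whereas Bcl2a1c (7.64, 8.10 and 7.21 against 5.12, 4.53 and 5.43), Bcl2a1d (2.53 ± 0.38) and Bcl2l2 (0.87 ± 0.21) rose, next to the pro-apoptotic Bik (0.62 ± 0.21). The Bcl2a1 genes are close copies of each other, and their probes may share signal. Among the PIM kinases, which promote survival, Pim1 (at least 3.16-fold) and Pim3 (8.86, 8.79 and 8.82 against 7.14, 7.10 and 7.51) rose and Pim2 fell (-1.09 ± 0.29). In this list of 17 tested genes 6 rose and 3 fell, and with median scaling 1 rose and 1 fell.

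Immediate early genes, which are induced within minutes of stimulation, moved in both directions: of 23 tested 11 rose and 4 fell, with a median of 0.46. Tnfaip3, the NF-κB inhibitor A20, stood at 9.38, 8.92 and 8.75 in stage 1-2 and 6.14, 6.23 and 6.81 in T cells, 6.16-fold higher (adjusted p = 3.22e-06). Ier3 stood at 7.88, 7.22 and 8.36 against 5.63, 4.82 and 4.84. The AP-1 subunit genes Junb (9.79, 10.16 and 10.39 against 8.35, 8.41 and 8.21), Fosb (6.61, 7.08 and 8.26 against 4.39, 5.40 and 4.32), Fos (1.88 ± 0.32) and Jun (1.31 ± 0.26) rose, as did Atf3, Nr4a2, Nfkbiz, Dusp1 and Nfkbia. The 4 that fell were Egr1, Egr2, the phosphatase Dusp6 (-1.31 ± 0.26) and the activation receptor Cd69 (-1.15 ± 0.24), all of which TCR signals induce. Egr1 and Egr2 thus moved opposite to the Fos and Jun genes in the same samples. With median scaling Junb and Fosb did not pass (adjusted p = 0.182 and 0.0518), and 2 genes of the list rose and none fell.

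Genes that mark effector and memory T cells through calcium-binding, membrane-linked and cytoskeletal proteins rose in part: of 21 tested 10 rose and 4 fell, with a median of 0.76. The galectin Lgals3 stood at 12.22, 12.47 and 12.11 against 8.36, 7.29 and 7.88, 21.5-fold higher (adjusted p = 4.36e-09). S100a6 stood at 9.23, 9.14 and 9.71 against 5.80, 5.71 and 6.01, the annexin Anxa2 at 11.13, 10.94 and 10.87 against 8.16, 8.28 and 8.23, and Emp1 was at least 9.19-fold higher. Capg (10.39, 10.50 and 10.29 against 8.56, 7.67 and 7.75), Myo1f, S100a11, S100a4, Ahnak and Cd44 made up the other rises. Lgals3, Capg and the S100 genes are also expressed by myeloid cells, whose marker levels are given above. Plec, Anxa6, Emp3 and Tmsb10 fell, by 0.83 to 1.13. With median scaling 5 rose and none fell, and Capg did not pass (adjusted p = 0.0518).

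DNA replication genes rose in part, and no mitotic gene passed. Of 32 tested replication genes 14 rose (43.8%) and 2 fell, E2f2 (7.05, 7.40 and 7.28 against 8.41, 8.60 and 8.20) and Ccne1 (-1.15 ± 0.28). The helicase subunit Mcm6 stood at 8.72, 8.84 and 9.27 in stage 1-2 and 7.45, 7.30 and 7.41 in T cells (1.56 ± 0.30, adjusted p = 0.000992). Uhrf1, which maintains DNA methylation, stood at 10.14, 9.90 and 10.19 against 9.16, 8.72 and 8.87, and the ribonucleotide reductase subunit Rrm1 at 8.14, 7.71 and 7.59 against 6.67, 6.95 and 6.94. Each of the 3 was without overlap. None of 24 tested mitosis genes passed in either direction in limma, 3 were higher at an unadjusted p under 0.05 and none lower, and their median was 0.35; Aurka (6.96, 6.33 and 5.70 against 5.32, 4.74 and 5.76) had an adjusted p of 0.0864. No replication gene passed with median scaling, and 9 (without WT T replicate 1 or 2) to 13 of them rose without single arrays.

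Metabolic and protein-folding lists held some rises. Of 13 tested glycolysis genes 6 rose and the pyruvate dehydrogenase kinase Pdk1 fell (-1.13 ± 0.26). The hexokinase Hk2 stood at 8.12, 7.21 and 8.67 against 5.50, 4.67 and 5.03, 7.62-fold higher, and the triose phosphate isomerase Tpi1 at 10.78, 10.91 and 10.59 against 8.86, 8.30 and 8.65, although 1 of its 3 probes did not pass (0.13, adjusted p = 0.764). Pfkl, Aldoa, Gapdh and Pgam1 rose by 0.87 to 1.10, and Hk2 alone passed with median scaling. Of 18 tested chaperones 7 rose and none fell, among them the endoplasmic reticulum proteins Pdia4 (1.39 ± 0.26), Pdia3 (1.08 ± 0.24) and Hsp90b1 (0.97 ± 0.21). Respiratory chain and ribosomal protein genes passed rarely: 1 of 51 (Cox7b) and 2 of 46 (Rplp0 and Rpl7a) passed, and these 3 calls were each lost without at least 4 of the single arrays. None of the chaperones or ribosomal genes passed with median scaling.

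Interferon-stimulated genes were lower on balance of the counts: of 30 tested 14 fell (46.7%) and 3 rose, with a median of -0.57. The interferon-induced GTPase Igtp stood at 7.67, 8.44 and 7.92 in stage 1-2 and 10.18, 9.79 and 10.07 in T cells, 4.01-fold lower (adjusted p = 1.63e-05). Ifi47, of the same GTPase family, stood at 8.89, 8.85 and 7.84 against 10.54, 10.24 and 10.49. Ifit3, Oas2, Usp18, Isg15, Irf9, Stat2, Ifit2, Zbp1, Trim30a, Rtp4, Ifi35 and Samhd1 fell too. The 3 rises were the antiviral membrane proteins Ifitm2 (9.11, 8.27 and 10.71 against 5.02, 4.43 and 4.85) and Ifitm3 (9.0, 8.15 and 9.69 against 5.48, 4.50 and 5.68) and Ly6e (1.19 ± 0.22). Ifitm2 and Ifitm3 were highest on stage 1-2 replicate 3 and are also expressed by myeloid cells. None of the 14 falls passed with median scaling (Igtp, adjusted p = 0.0887), and 8 (without WT T replicate 1) to 11 of the list fell without single arrays.

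**Figure D4:**
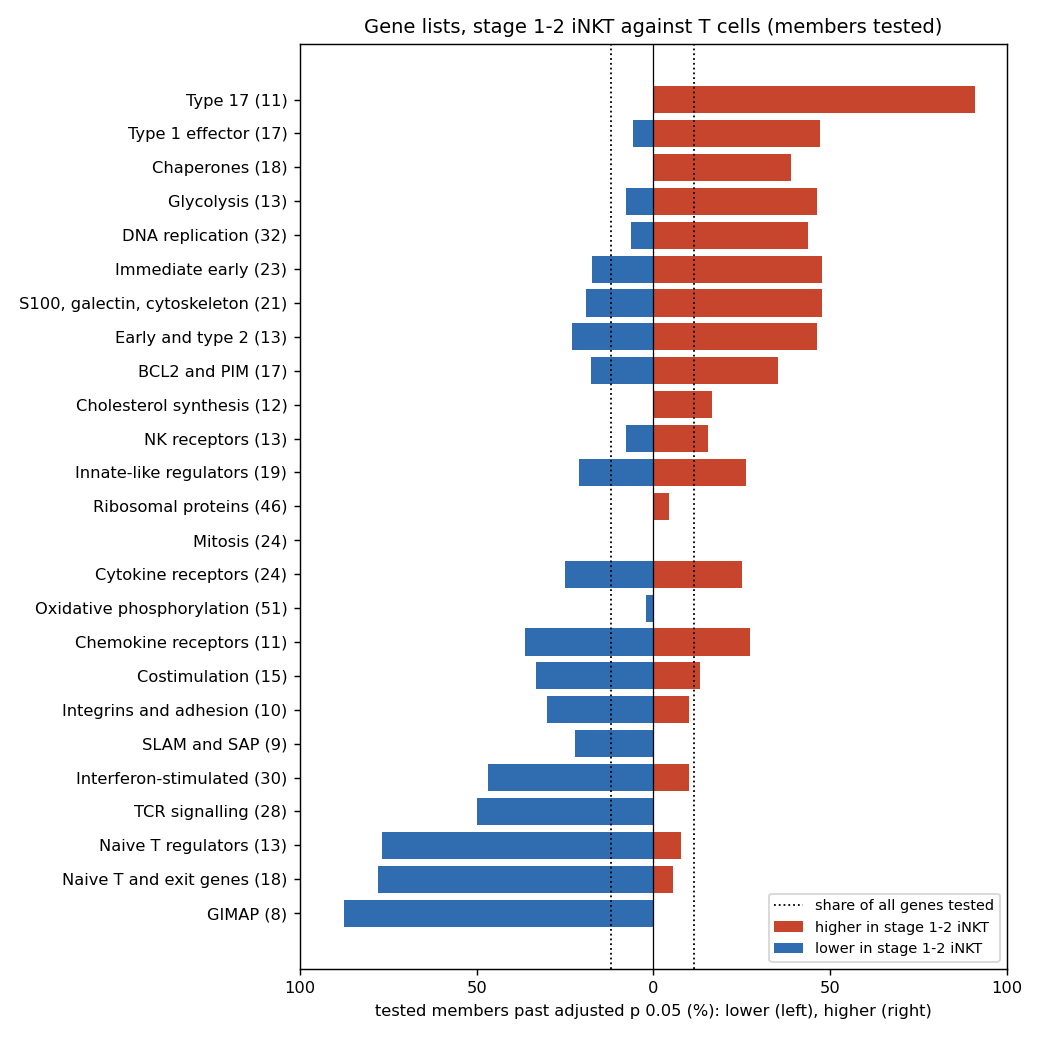
Share of the tested members of each gene list that were higher (right) or lower (left) in stage 1-2 iNKT cells than in T cells at an adjusted p under 0.05, in percent of members tested (numbers in brackets); dotted lines mark the shares among all 6838 genes, 11.5% and 11.9%. Of the lists shown, the type 17 list has the highest share of rises (10 of 11) and the GIMAP list the highest share of falls (7 of 8).

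Values in stage 3 iNKT cells stand beside those of stage 1-2. The comparisons of both stages with T cells share the 3 WT T arrays, and the comparison between the stages shares the stage 1-2 arrays, so they are given side by side. Stage 3 differed from T cells in 1578 genes (23.1%) and from stage 1-2 in 1377 (20.1%). Il4 changed by 4.68 against T cells in stage 1-2 and 3.22 in stage 3, and was higher in stage 1-2 than in stage 3 by 1.46 ± 0.34 (adjusted p = 0.00653). Il17rb (4.12 and 1.98), Plac8 (3.27 and 0.27) and Ccr6 (2.55 and 0.33) were also higher in stage 1-2 than in stage 3 (adjusted p = 0.000123, 7.1e-07 and 0.000213). Plac8 and Ccr6 did not pass against T cells in stage 3. The neutrophil, monocyte and dendritic lists above were also higher in stage 1-2 than in stage 3, and their part in these differences was not tested. The other direction held for the NK receptor Klra1 (2.25 in stage 1-2, 5.58 in stage 3), for Bhlhe40 (2.88 and 4.92), for Tnfaip3 (2.62 and 4.53), for Nfil3 (3.38 and 4.61) and for Cd44 (1.49 and 2.43), each higher in stage 3 (adjusted p from 4.76e-06 to 0.00313).

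Some falls were present in both stages, and some were not. Klf2 (-3.23 in stage 1-2 and -3.0 in stage 3), Foxo1 (-2.50 and -2.68), Tdrp (-4.10 and -4.26), Ddit4 (-4.34 and -4.69) and Id3 (-1.88 and -2.11) passed against T cells in both stages and did not pass between them. Ccr7 (-1.73 and -3.88) and Cd8b1 (-3.32 and -5.63) were lower again in stage 3 than in stage 1-2 (adjusted p = 0.000123 and 5.99e-05). Bcl2 stood at 8.07, 8.21 and 8.27 on the stage 3 arrays, -0.21 against T cells (adjusted p = 0.641), and differed between the stages by -3.11 ± 0.28 (stage 1-2 minus stage 3, adjusted p = 1.21e-06). Gimap3 stood at 8.90, 8.52 and 8.66 in stage 3, 0.01 against T cells, and Gimap6 and Gimap8 also differed between the stages (adjusted p = 1.69e-05 and 4.55e-05), while Gimap7 did not (0.146). The median change of the GIMAP list against T cells was -1.72 in stage 1-2 and 0.01 in stage 3. The replication list had medians of 0.56 and -0.58, the type 1 list 0.61 and 2.57, and the NK receptor list 0.10 and 3.07.

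**Figure D5:**
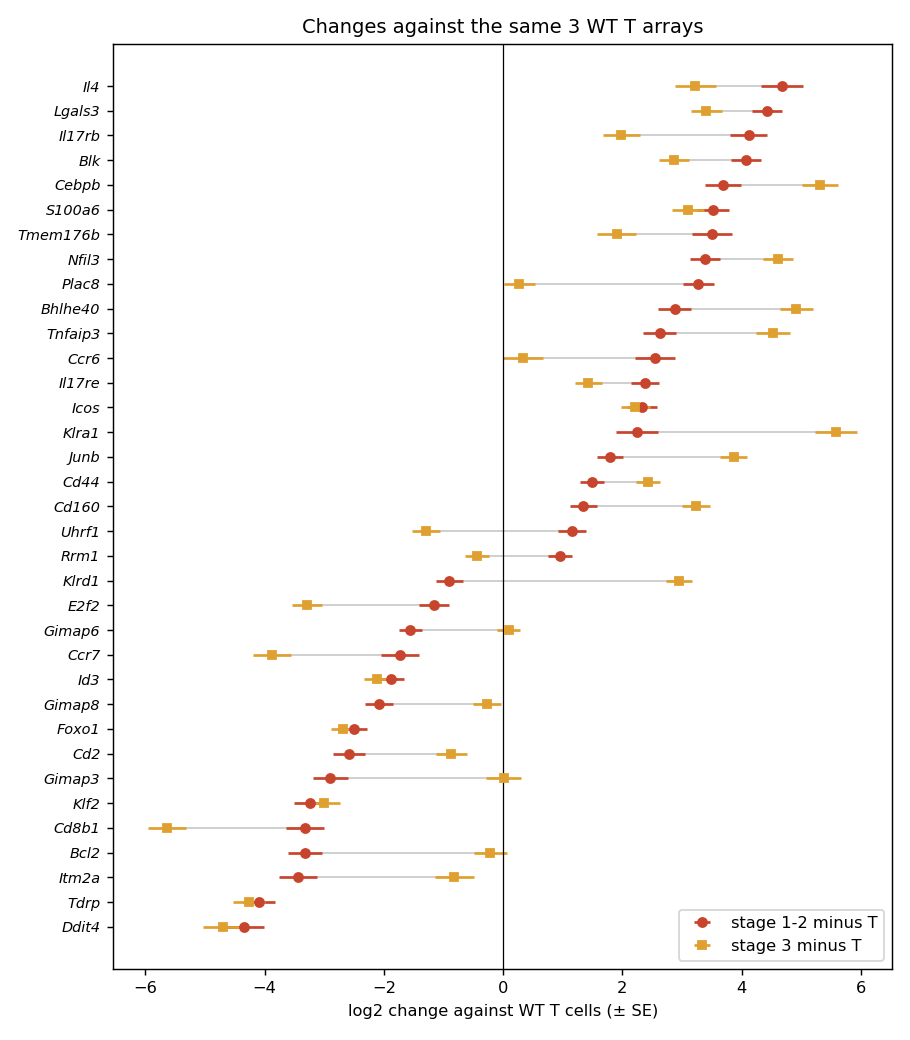
Log2 change against WT T cells (horizontal axis, ± SE) of 35 genes in stage 1-2 iNKT cells (circles) and stage 3 iNKT cells (squares), both measured against the same 3 T cell arrays. Klf2, Foxo1 and Tdrp lie together on the left, Bcl2 and Gimap3 are low in stage 1-2 alone of the 2 stages, and Klra1 is farther right in stage 3.

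The rises shared by both stages with the largest smaller change were those of S100a8, Lyz1, Lgals3, Il4, Cebpb, Fcer1g, Nfil3, Ptprv, Hey1 and S100a6. Fcer1g, the signalling chain of Fc and NK receptors, changed by 4.28 in stage 1-2 and 5.32 in stage 3, and Cebpb, a leucine zipper factor of myeloid and activated cells, by 3.69 and 5.31. The phosphatase-like receptor Ptprv (8.63, 8.45 and 8.14 against 4.98, 4.85 and 4.60 in T cells) and the Notch target Hey1 (8.07, 8.68 and 7.23 against 4.75, 4.35 and 4.60) were not detected in T cells, at least 10.9-fold and 8.23-fold lower there. They stood at 7.97, 8.54 and 8.02 and 8.02, 8.27 and 6.76 in stage 3. Among genes also above stage 3, the 10 with the largest rise over T cells were all genes of the neutrophil, monocyte or MHC class II lists (S100a8, S100a9, Lyz1, Ltf, H2-Ab1, Camp, H2-Eb1, Lyz2, Cd74 and Alox5ap). S100a8 stood at 9.99, 7.96 and 6.45 and H2-Ab1 at 7.70, 6.61 and 7.24 on the stage 3 arrays.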

How the data were processed

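The deposited main table is not normalized and pairs, per the file headers, each probe's mean signal (a linear intensity) with a detection p-value for every array; GenomeStudio is named in the submitters' processing notes, without a version. An alternative used the authors' other table, whose intensity values were normalized by a method not given in the sources used here.

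Of 25697 probes 23978 had 1 gene symbol and 1719 had none and were not used here. The neqc function of limma 3.58.1 (R 4.3.3; offset 16) corrected the background, applied quantile normalization and took log2. Probes had to be detected (p-value under 0.05) on every array of some group, and the kept probe with the highest mean stood for its gene. The limma model gave each of the 5 groups a mean over the 15 arrays (10 residual degrees of freedom), and Benjamini-Hochberg adjustment ran over 6838 genes in each contrast. Errors are SE of the log2 change, with 3 arrays per group. Where the lower group never detected a gene, its detection limit takes the place of the level and the fold is written as at least N-fold. The number of arrays limits the precision.

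Genes were named by rule: the 12 largest rises and falls without overlap between groups, the 10 largest rises also above stage 3, the 10 with the largest smaller change in both stages, up to 4 members of each of 36 lists by adjusted p, and a set of defining genes. Members of lists that passed are named with them, and other members named were chosen after their values were seen. The members and lists were chosen with earlier results of these data known. The lists are counted and not tested, they overlap, and a member silent in T cells could be tested only through a group where it was high. Promoter sequences and coordinates are RefSeq's (GRCm38.p6). Figures were drawn with Python 3.11.15 and matplotlib 3.10.9. The alternatives were other background, normalization, filter, probe, sample, moderation, weight and block settings and each of the 6 arrays left out.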

Additional observations from a re-analysis of the deposited data

Results flagged for a closer look

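In 34 genes the change against WT T cells ran opposite ways in the 2 iNKT stages, each past the threshold in its own comparison, and the difference between the stages passed limma's test as well. Of these, 24 were higher than T cells in stage 1-2 and lower in stage 3, and 10 the reverse; the 4 with the largest difference in each direction, clone names left out, are given. Both changes are measured against the same 3 WT T arrays. Aldh2, a mitochondrial aldehyde dehydrogenase, changed by 1.87 in stage 1-2 and -2.47 in stage 3, a difference of 4.34 ± 0.38 (SE; adjusted p = 8.26e-07). The Rac exchange factor Tiam1 changed by 1.33 and -1.83 (difference 3.16 ± 0.24, adjusted p = 1.63e-07), Snn by 0.82 and -2.08 (2.91 ± 0.28, adjusted p = 2.04e-06), and the B cell receptor chain Cd79b by 1.29 and -1.37 (2.66 ± 0.44, adjusted p = 0.000363). In this order the 4 genes averaged 5.37, 4.78, 4.93 and 4.75 in stage 3 and 10.40, 8.16, 8.21 and 7.67 in KO iNKT cells. The neutrophil, monocyte and dendritic lists above were also higher in stage 1-2 than in stage 3. Their part in these 4 genes was not tested. The other 4 were lower than T cells in stage 1-2 and higher in stage 3. The CD94 gene Klrd1 changed by -0.90 and 2.95 (-3.85 ± 0.22, adjusted p = 3.97e-09), and Nkg7, a protein of cytotoxic granules, by -1.06 and 1.87 (-2.93 ± 0.28, adjusted p = 1.92e-06). The granule transport protein Sytl2 changed by -0.90 and 1.93 (-2.83 ± 0.27, adjusted p = 2.04e-06) and Btbd11 by -0.93 and 1.32 (-2.26 ± 0.29, adjusted p = 3.82e-05).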

How the results depend on the processing

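Against 1601 genes past the threshold (787 higher, 814 lower), median scaling gave 190 (129 and 61), and asking for a change of at least 2-fold as well gave 890 (487 and 403). The cause of the loss under median scaling was not tested. Without single arrays between 1110 (without WT T replicate 2) and 1411 genes passed. The other settings gave 1408 (no detection filter) to 2066 (array weights). Of the 116 named genes that passed, 73 did so under every alternative and 107 without each array in turn; none changed sign. With median scaling 43 of the 116 lost their call and 43 of 72 counts over the gene lists moved by over 1.5 times, against 5 with the authors' normalized table. Replicate numbers were not taken to pair the samples: deviations of same-numbered arrays correlated at -0.01, -0.09 and -0.01. With the replicate number as a block 1515 genes passed (747 and 768). Probes without a detected signal in 1 group give bounds alone.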

Other observations

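Genes of double-positive thymocytes, the cells that select iNKT precursors, moved in both directions: of 16 tested 6 rose and 3 fell, and with median scaling 2 rose and 1 fell. Dntt, the terminal transferase that diversifies receptor genes, rose by 2.16 ± 0.40 (adjusted p = 0.000831), next to Ly6d, which also marks plasmacytoid dendritic cells, Dgat1 (8.17, 7.18 and 7.32 in stage 1-2 against 4.85, 4.26 and 5.15 in T cells), Nrgn, Mns1 and Aqp11. Cd8b1, Themis and Chchd10 fell. The recombinase gene Rag1 (-0.41 ± 0.29, adjusted p = 0.343) and Cd1d1, which presents the selecting lipids (-0.13 ± 0.21, adjusted p = 0.694), did not pass. The mean log2 intensity of the list lay between 6.81 and 7.14 in stage 1-2 and between 6.48 and 6.56 in T cells. In cholesterol synthesis 2 of 12 tested genes rose (16.7%, against 11.5% of all genes tested), Insig1 (0.89 ± 0.24) and Fdps (0.73 ± 0.22); a second Insig1 probe differed by 0.01 and did not pass, and both calls were lost without WT T replicate 2 and with median scaling, that of Fdps also without stage 1-2 replicate 3 or WT T replicate 1.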
